A study of Mus musculus with 4 samples.

Results

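The response of Cbl-b-/- CD4+ T cells to anti-CD3 was taken from 2 small RNA libraries of a 4-library series. The unstimulated library came from CD4+ T cells of C57BL/6 Cbl-b-/- mice that were cultured without stimulation and are labelled naive. The stimulated library came from Cbl-b-/- cells that received an antibody to CD3 for 48 h. The other 2 libraries hold WT C57BL/6 cells in the same states and serve here as side-by-side values. Cbl-b attaches ubiquitin to signalling proteins downstream of the T cell receptor (TCR) and so dampens activation; CD3 is a part of that receptor. No other allele or agent is labelled, costimulation included. The labels give no age, and neither the number of mice behind a library nor any pooling. The Cblb transcript was not measured, so the libraries themselves do not check the genotype.

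Each state has 1 library, so no value below has a replicate check and no p-value can be given. The Cbl-b-/- libraries held 14017277 (unstimulated) and 11561693 (stimulated) counted reads of known mature miRNAs, and 919 and 975 of the 1091 listed miRNAs had at least 1 read. Levels are counts per 1000000 of these reads (CPM), and ratios are stimulated over unstimulated on the log2 scale. Intervals are 95% Clopper-Pearson intervals and cover counting error only, since PCR copies are not independent molecules. A miRNA was called past the rule when its mean level was at least 50 CPM, its ratio at least 2-fold and its interval free of 0. At 50 CPM a miRNA has 701 reads in the unstimulated and 578 in the stimulated library. The rule was applied with 2 scalings, the sum of counts and TMM, a factor taken from the trimmed mean of log ratios. TMM lowered every log2 ratio by 0.60, and a miRNA was called with both scalings only where it passed on each.

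MicroRNAs are short RNAs that guide Argonaute proteins to messenger RNAs. They pair mainly through the seed, bases 2 to 8 counted from the 5′ end, so miRNAs with 1 seed are predicted to share targets. A hairpin precursor is cut into a 5p and a 3p strand, and usually only 1 of them is retained in bulk. In T cells, TCR signals are known to induce a set of miRNAs that includes miR-155 and miR-132, while miR-181a and miR-150 belong to developing and resting cells.

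The mature sequences that the results turn on are shown 5′ to 3′ with the seed in capitals, from RefSeq's annotation of GRCm38.p6, which holds 183 of the 223 miRNAs tested. The first set are miRNAs of the activation programme that were called higher. miR-132 and miR-212 carry 1 seed, and miR-182, miR-96 and miR-183 come from 1 cluster with different seeds.
miR-155-5p: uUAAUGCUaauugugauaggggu
miR-210-3p: cUGUGCGUgugacagcggcuga
miR-31-5p: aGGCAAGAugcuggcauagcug
miR-132-3p: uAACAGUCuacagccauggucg
miR-212-3p: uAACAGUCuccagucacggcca
miR-182-5p: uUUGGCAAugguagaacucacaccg
miR-96-5p: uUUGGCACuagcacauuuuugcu
miR-183-5p: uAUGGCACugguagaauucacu

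The second set are miRNAs called lower with their seed relatives. The miR-181 and miR-146 members share a seed within each family and differ in the rest of the strand.
miR-181a-5p: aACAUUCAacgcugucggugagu
miR-181b-5p: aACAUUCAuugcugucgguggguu
miR-181c-5p: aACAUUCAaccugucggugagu
miR-181d-5p: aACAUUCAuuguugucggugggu
miR-146a-5p: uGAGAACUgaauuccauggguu
miR-146b-5p: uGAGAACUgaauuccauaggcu
miR-223-3p: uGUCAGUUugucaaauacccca

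The third set are seed relatives whose ratios lay far apart: the miR-34 and miR-449 group, the miR-29 group, and let-7b beside miR-98.
miR-34a-5p: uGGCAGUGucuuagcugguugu
miR-449a-5p: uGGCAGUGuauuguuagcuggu
miR-449c-5p: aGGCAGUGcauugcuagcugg
miR-29a-3p: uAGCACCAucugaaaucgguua
miR-29b-3p: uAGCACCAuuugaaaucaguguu
miR-29c-3p: uAGCACCAuuugaaaucgguua
let-7b-5p: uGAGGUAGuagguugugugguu
miR-98-5p: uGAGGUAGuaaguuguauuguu

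The last set are strands of the less abundant arm of their hairpins, which are taken up with the arm balance.
miR-155-3p: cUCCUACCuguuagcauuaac
miR-29a-5p: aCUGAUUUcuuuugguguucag
miR-150-3p: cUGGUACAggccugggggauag

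The composition of the miRNA pool changed through a small number of abundant miRNAs. In all, 35.3 percentage points of the reads moved from 399 miRNAs that lost share to 654 that gained it. The 8 largest gains made up 28.3 points and the 8 largest losses 28.6 points. miR-21a-5p, an miRNA of activated lymphocytes whose hairpin lies in an exon of Vmp1, had 79972 CPM without and 221297 CPM with stimulation. It moved from rank 3 to rank 1 and alone gained 14.1 points. miR-155-5p gained 4.85 points, from 3112 to 51621 CPM, and moved from rank 35 to rank 4. miR-22-3p gained 3.20 points, from 16541 to 48576 CPM.

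miR-181a-5p, which in mouse T cells tunes sensitivity to antigen, had 109289 CPM without and 17566 CPM with stimulation, a change of -9.17 points and a move from rank 2 to rank 14. miR-142a-5p, a miRNA of all blood lineages, had 185150 and 104582 CPM. It was the most abundant miRNA of the unstimulated library and the second of the stimulated one. miR-16-5p, known to repress cyclins, had 67857 and 36712 CPM, and miR-26a-5p, encoded in introns of Ctdspl and Ctdsp2, had 48027 and 16850 CPM. miR-150-5p, which restrains Myb in mature lymphocytes, had 45147 and 20197 CPM. The other 3 of the 8 largest losses were miR-30d-5p with 20650 and 11491 CPM, miR-146a-5p, and miR-30e-5p with 25998 and 17630 CPM. Reads of bulk cells give shares only, so fewer cells of a type and less RNA per cell cannot be told apart.

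**Figure D1:**
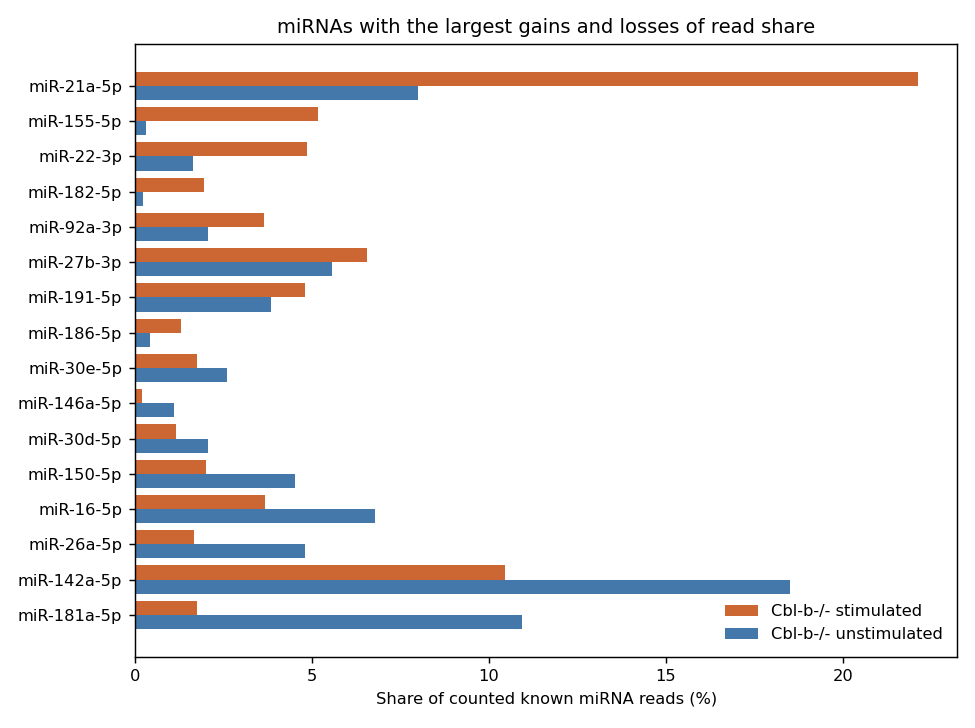
Share of the counted known miRNA reads, in percent, for the 8 miRNAs with the largest gains and the 8 with the largest losses in Cbl-b-/- cells; each bar is 1 library. miR-21a-5p holds the largest share after stimulation, and the bars of miR-181a-5p and miR-142a-5p shorten the most.

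Of the 223 miRNAs that reached this level, 78 were called higher (35.0%) and 33 lower (14.8%) with column sums. With TMM, 52 were called higher (23.3%) and 67 lower (30.0%). The balance of higher and lower calls therefore depended on the scaling: 70.3% of the calls were higher with column sums and 43.7% with TMM. With both scalings 52 were higher (23.3%) and 33 lower (14.8%), and these are the calls used below unless a scaling is named. The median log2 ratio over all 223 was 0.34 with column sums and -0.26 with TMM, and the quartiles with column sums were -0.56 and 1.49. The same 223 miRNAs hold 99.7% and 99.6% of the reads of the unstimulated and stimulated library.

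**Figure D2:**
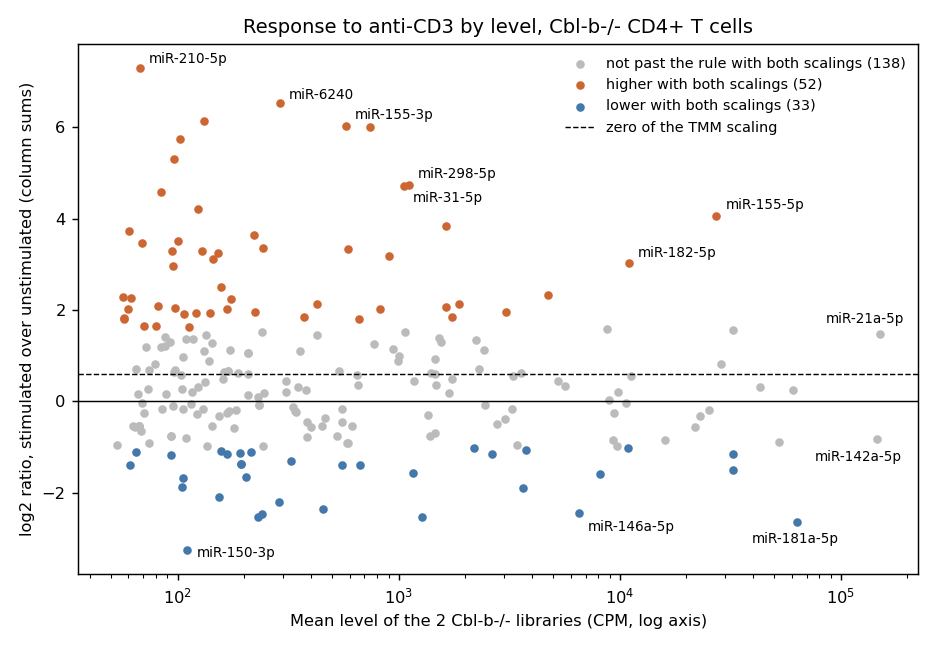
log2 ratio with column sums against the mean CPM of the 2 Cbl-b-/- libraries for 223 miRNAs, coloured by the call with both scalings; the dashed line at 0.60 is the zero of the TMM scaling. The 52 higher miRNAs reach a log2 ratio of 7.29 and the 33 lower ones -3.26, and miR-21a-5p and miR-142a-5p, the most abundant, lie between the called groups.

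The miRNAs known to be induced by TCR signals stood almost entirely on the higher side. Of 14 tested members of that list, 13 were higher with column sums, beside 35.0% of all miRNAs tested, and 11 with both scalings, beside 23.3%. None was lower. Their median log2 ratio was 3.68, or 3.08 with TMM, beside 0.34 and -0.26 over all miRNAs tested. The fifteenth member, miR-214-3p, lay under 50 CPM. This and the other lists were compiled with earlier results of these data known, so their directions are not independent evidence.

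Both strands of miR-155, a positive regulator of effector T cells, were among them. miR-155-5p had 43628 reads without and 596830 with stimulation, a log2 ratio of 4.05 with an interval of 4.04 to 4.07. Its other strand, miR-155-3p, had 245 and 13187 reads, or 17.5 and 1141 CPM, a log2 ratio of 6.03. The hairpin lies in an exon of Mir155hg on GRCm38 chr16:84714140-84714204. In WT cells the same strands had log2 ratios of 3.50 and 4.91.

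The cluster of miR-132 and miR-212, which respond to the transcription factor CREB, was called higher in all of its 4 strands. miR-132-3p had 106 CPM without and 1071 CPM with stimulation, and miR-212-3p, which has the same seed, had 32.8 and 409 CPM. Summed over this seed the level was 138 CPM before and 1480 CPM after. The log2 ratios of the 4 strands spanned 3.34 to 4.21, so they stayed within 1 of each other. The hairpins lie at chr11:75173388-75173747.

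The cluster of miR-182, miR-96 and miR-183 was called higher in each of its 3 tested members. miR-182-5p, which in activated mouse helper T cells represses Foxo1, had 2404 CPM without and 19634 CPM with stimulation. miR-183-5p had 213 and 3045 CPM, and miR-96-5p had 11.5 and 126 CPM. Their log2 ratios of 3.03, 3.83 and 3.46 differed by less than 1. The cluster lies at chr6:30165918-30169737 outside annotated host genes of its strand.

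The highest ratio among the 223 miRNAs at 50 CPM or more belonged to miR-210, the miRNA of the hypoxia response. miR-210-5p had 12 reads without and 1554 with stimulation, 0.856 and 134 CPM, with a log2 ratio of 7.29 and an interval of 6.49 to 8.25. miR-210-3p, its abundant strand, had 22.8 and 1460 CPM, a 64.1-fold ratio. miR-31-5p, a TCR-induced miRNA, had 77.8 and 2032 CPM, and its partner strand miR-31-3p had 3.78 and 201 CPM. In WT cells miR-31-5p had 51.8 and 641 CPM, a smaller log2 ratio of 3.63 beside 4.71 in Cbl-b-/- cells.

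Several of the highest miRNAs were no members of the TCR list. miR-147-3p, known in mouse macrophages as a product of Toll-like receptor signalling, had 3.71 CPM without and 260 CPM with stimulation. miR-298-5p had 80.4 and 2137 CPM, and its neighbour at chr2:174267047-174267585, miR-296-5p, had 31.3 and 133 CPM. miR-193a-3p had 6.71 and 161 CPM. miR-6240 had 6.21 CPM without and 575 CPM with stimulation, a log2 ratio of 6.53, while in WT cells it had 8.88 and 94.7 CPM and a log2 ratio of 3.42. The miR-6240 sequence is longer than those shown above, and what its reads stem from was not tested.

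Of the TCR list, 3 members were not called with both scalings. miR-21a-5p had a log2 ratio of 1.47 with column sums and 0.87 with TMM, so it passed the 2-fold limit only with the first. miR-222-3p had 83.2 CPM without and 202 CPM with stimulation, 1.28 and 0.68 on the same scales. miR-221-3p, from the same cluster, had 261 and 357 CPM, a log2 ratio of 0.45 that turned to -0.15 with TMM.

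**Figure D3:**
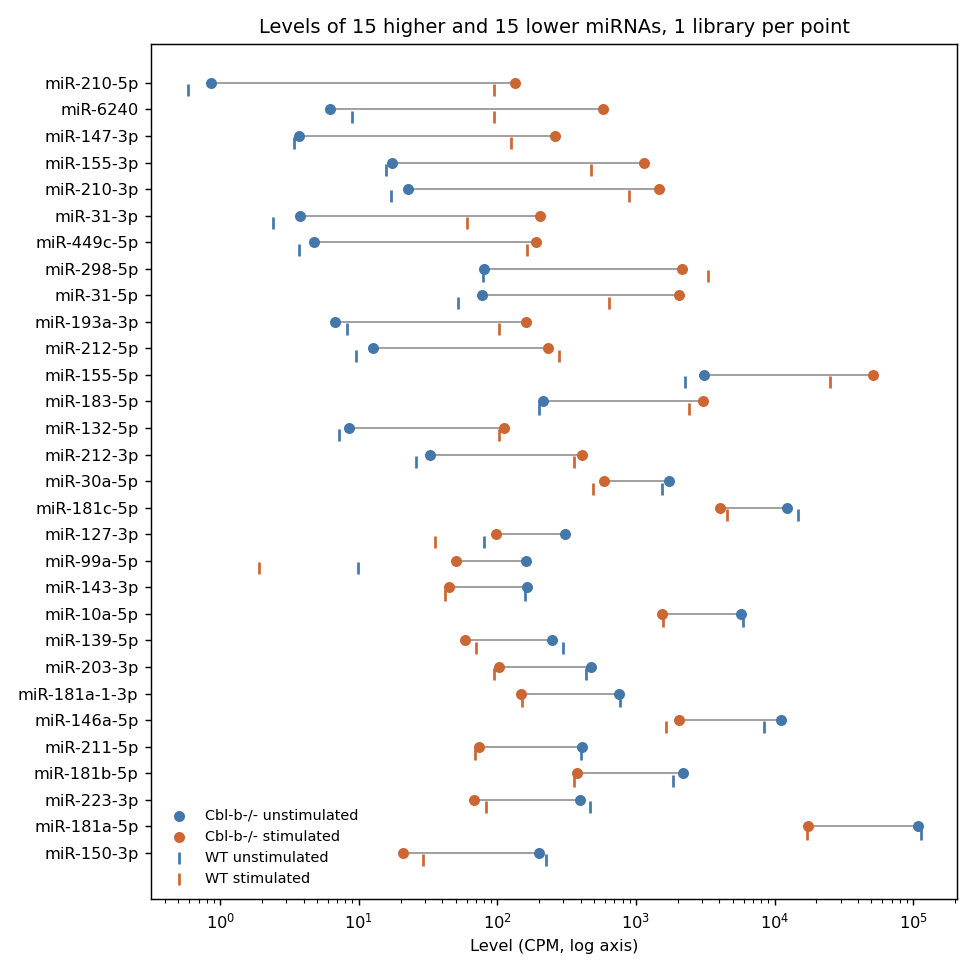
CPM on a log axis of the 15 miRNAs with the highest and the 15 with the lowest ratios among those called with both scalings; filled points are the 2 Cbl-b-/- libraries, joined by a line, and ticks below them the 2 WT libraries. In each of the 30 miRNAs the WT ticks move the same way as the Cbl-b-/- points. For miR-99a-5p and for miR-127-3p, the WT levels lie below both Cbl-b-/- levels.

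The miR-17-92 cluster, which promotes the growth and survival of lymphocytes and lies in exons of Mir17hg at chr14:115043671-115044506, was called higher in all 7 strands that come from that place only and reached 50 CPM. miR-18a-5p had 180 CPM without and 1619 CPM with stimulation. miR-17-5p had 698 and 3065 CPM, miR-20a-5p 764 and 2730 CPM, and miR-19a-3p 163 and 586 CPM. Their log2 ratios were 3.17, 2.13, 1.84 and 1.84, in that order. miR-92a-3p, which is made from this cluster and its X-linked copy, had 20760 and 36613 CPM, a log2 ratio of 0.82 that fell short of 2-fold.

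The copies of that cluster had fewer strands past the rule. At the X-linked copy, chrX:52741693-52742567, log2 ratios ran from 0.20 for miR-20b-5p to 1.91 for miR-18b-5p, and only miR-18b-5p was called. At the copy within Mcm7, chr5:138165321-138165818, miR-25-3p had 8868 and 9000 CPM and miR-93-5p 9093 and 10469 CPM, with log2 ratios of 0.02 and 0.20. With TMM these turned to -0.58 and -0.40. miR-106b-5p had 0.88 and miR-106b-3p 0.32, or -0.28 with TMM, and miR-25-5p, the minor arm, was called higher at 2.26. The list made for these 3 clusters holds 13 strands and leaves out minor arms such as miR-25-5p. Of the 13 listed strands, 6 were higher with column sums, beside 35.0% of all miRNAs tested, and 5 with both scalings, beside 23.3%. Their median was 0.88, or 0.28 with TMM.

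Another proliferation-linked set, miR-23, miR-27 and miR-24, had 5 tested members with a median log2 ratio of 0.94, or 0.34 with TMM. miR-23a-3p had 552 and 1578 CPM and miR-27a-3p 1528 and 3344 CPM. Both passed as higher with column sums, beside 35.0% of all miRNAs tested, and none of the 5 passed with TMM, beside 23.3%. miR-27b-3p had 55645 and 65709 CPM, a log2 ratio of 0.24 that turned to -0.36 with TMM.

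Most miRNAs of resting T cells were on the lower side. Of the 10 tested members of the resting T cell list, 8 were lower with both scalings, beside 14.8% of all miRNAs tested, and none was higher with both. The median log2 ratio was -1.17, or -1.77 with TMM. This list, too, was compiled with earlier results of these data known. miR-150-3p had 201 CPM without and 21.0 CPM with stimulation, the lowest ratio of the 223 at -3.26. miR-139-5p, from an intron of Pde2a, had 249 and 58.6 CPM. miR-101a-3p had 5082 and 2418 CPM and miR-26b-5p, from an intron of Ctdsp1, 14521 and 7162 CPM.

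The exceptions of this list were the strands of miR-342, from an intron of Evl. miR-342-3p had 5015 CPM without and 6349 CPM with stimulation, a log2 ratio of 0.34 that turned to -0.26 with TMM. miR-342-5p had 72.1 and 196 CPM, a log2 ratio of 1.44 with column sums and 0.84 with TMM. miR-125b-5p and miR-99a-5p were lower by log2 ratios of -1.17 and -1.68. Both were scarce in WT cells, where miR-99a-5p had 9.91 and 1.91 CPM beside 162 and 50.6 CPM in Cbl-b-/- cells.

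The miR-181 family fell as a whole by summed level and unevenly by member. Summed over the seed the family had 124217 CPM without and 22297 CPM with stimulation, a log2 ratio of -2.48. miR-181a-5p and miR-181b-5p had log2 ratios of -2.64 and -2.53, miR-181c-5p -1.59, from 12266 to 4072 CPM, and miR-181d-5p -0.78, from 485 to 283 CPM. miR-181d-5p was thus called only with TMM, where its ratio was -1.38. miR-181a-1-3p, the partner strand from chr1:137966455-137966541, had 760 and 147 CPM.

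The miRNAs of NF-kB feedback and regulatory T cells included no member that was higher. miR-146a-5p, which represses Traf6 and Irak1, had 11042 CPM without and 2034 CPM with stimulation, a log2 ratio of -2.44. Its seed relative miR-146b-5p had 535 and 367 CPM, a log2 ratio of -0.54. miR-10a-5p, a miRNA of regulatory T cells, had 5772 and 1545 CPM. Over the 5 tested members, 2 were lower with both scalings, beside 14.8% of all miRNAs tested, and 5 with TMM, beside 30.0%. The median was -0.77, or -1.37 with TMM.

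Lower ratios short of the limit were found in the miR-15/16 and miR-30 families. Of the 4 tested miR-15/16 members, miR-322-5p was called, with 232 and 105 CPM, and the median was -0.83. Of the 5 tested miR-30 members, miR-30a-5p was called, with 1742 and 586 CPM, and the median was -0.56. Over all miRNAs tested, 14.8% were lower with both scalings. With TMM 3 members of each family were lower, beside 30.0% of all miRNAs tested. In the miR-148 family miR-148a-3p had 4441 and 6061 CPM and miR-148b-3p 1160 and 1761 CPM. Neither was called, and the median of 0.53 turned to -0.08 with TMM.

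**Figure D4:**
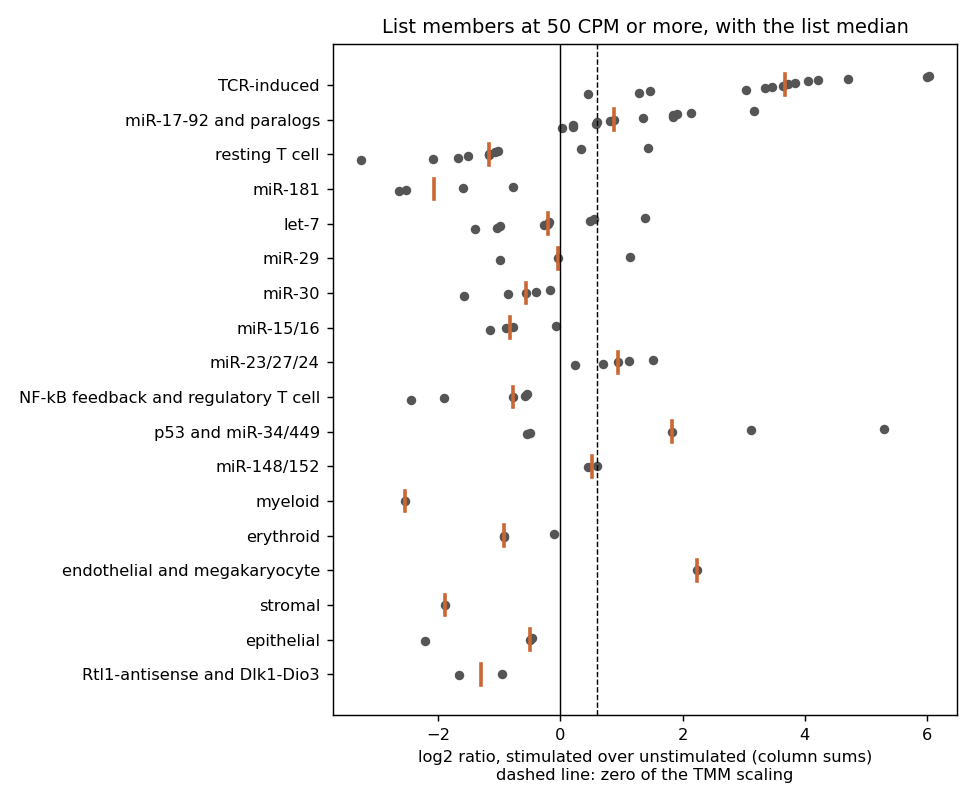
log2 ratios with column sums of the list members at 50 CPM or more; each point is 1 miRNA, the bar its list's median, and the dashed line the zero of the TMM scaling. The TCR-induced list has a median of 3.68 and the miR-181 list -2.06, while the let-7 and miR-29 lists spread to both sides of 0.

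Seed families often held members with unlike ratios. Of 26 families with at least 2 tested members, 15 had member ratios at least 1 apart on the log2 scale, and 0 held members called in opposite directions with both scalings. The widest was the family of miR-34, a target of p53, and miR-449, whose hairpins lie in an intron of Cdc20b. miR-449c-5p had 4.78 CPM without and 189 CPM with stimulation, miR-34a-5p 30.2 and 260 CPM, and miR-449a-5p 25.1 and 89.0 CPM. All 3 were called higher, with log2 ratios of 5.30, 3.11 and 1.83. In the same p53-linked list miR-192-5p and miR-194-5p were not called with column sums and were lower with TMM, at -1.09 and -1.14.

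The let-7 family, which restrains growth, had a summed level of 65771 CPM without and 58200 CPM with stimulation. Within it miR-98-5p had 841 and 2199 CPM, a log2 ratio of 1.39, or 0.79 with TMM. let-7b-5p had 970 and 371 CPM and let-7c-5p 2955 and 1448 CPM, and both were called lower. let-7i-5p had a log2 ratio of 0.55 that turned to -0.05 with TMM.

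In the miR-29 family, known to repress interferon-gamma and T-bet in mouse T cells, the members went apart. miR-29b-3p had 587 CPM without and 1293 CPM with stimulation, miR-29a-3p 10815 and 10505 CPM, and miR-29c-3p 324 and 164 CPM. Their log2 ratios were 1.14, -0.04 and -0.98, and with TMM 0.54, -0.64 and -1.58. The seed of miR-17 was similar: miR-17-5p had 2.13 and miR-93-5p 0.20, so the 6 members spread over 1.93.

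Hairpin arms give a comparison that no library scaling affects, because both arms are counted in the same library. For 116 hairpins with at least 100 reads per arm over both Cbl-b-/- libraries, the share of the minor arm was compared between states. The minor arm is the one with fewer reads in the WT unstimulated library, a definition chosen after seeing the data. By odds, the minor arm gained at least 2-fold in 37 hairpins (31.9%) and lost at least 2-fold in 3 (2.59%). Beyond counting error it gained in 74 and lost in 12, and in 30 the interval held no change. The median log2 odds ratio was 0.60. In WT cells 77 gained and 12 lost, with a median of 0.64, and 70 hairpins gained in both genotypes. The WT unstimulated library both defined the minor arm and served as the WT baseline. The WT counts are therefore not independent of that definition.

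The gain was also seen where the main arm hardly moved. For miR-29a, the main arm had a log2 ratio of -0.04, while miR-29a-5p had 50.2 CPM without and 192 CPM with stimulation, so that its share of the hairpin's reads went from 0.462% to 1.80%. For miR-25, miR-25-5p had 21.3 and 102 CPM, a share of 0.239% and 1.12%. For miR-221, with a main arm at 0.45, the share of the 5p arm was 2.14% and 9.49%. The minor arm also gained in hairpins whose main arm rose. For miR-155, with a main arm at 4.05, the share of the 3p arm was 0.558% and 2.16%. In miR-345, with a main arm at 1.93, the minor arm became the larger one, from 29.2% to 51.4%.

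In 3 hairpins the minor arm lost at least 2-fold. miR-150-3p went from 0.443% to 0.104% of its hairpin's reads, from 2814 to 243 reads. The 5p arm of miR-223, a myeloid miRNA, went from 4.13% to 1.75%. The third was miR-467c-3p, with 102 and 28 reads. The miR-297, miR-466, miR-467 and miR-669 hairpins are repeated copies whose reads can be counted for several of them, and their values are uncertain. Without them 63 of 98 hairpins gained beyond counting error, or 64.3%, beside 63.8% with them. Without the hairpins that have an arm called higher with both scalings, the share was 64.7%. With at least 100 reads per arm in the unstimulated library alone, so that no arm passed through a rise, it was 60 of 93, or 64.5%.

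**Figure D5:**
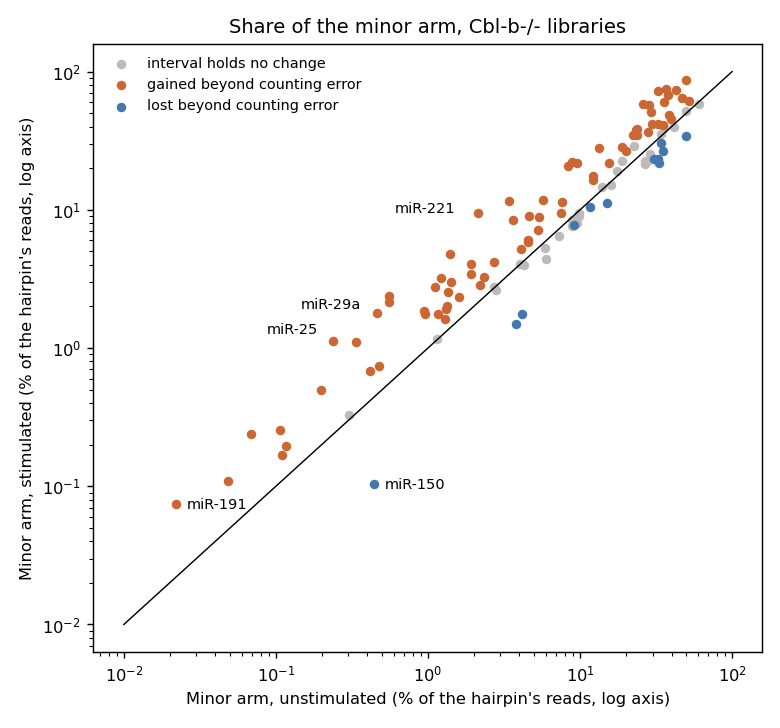
Share of the minor arm among its hairpin's reads, in percent on log axes, in the unstimulated and stimulated Cbl-b-/- libraries; each point is 1 of 114 hairpins, the other 2 having no minor-arm read in the unstimulated library, and the line marks equal shares. Most points lie above the line, and miR-150 lies far below it.

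A few miRNAs were near absent in 1 state. In all, 17 miRNAs had at most 3 reads without and at least 20 reads with stimulation, and 7 showed the reverse. miR-182-3p, the partner strand of miR-182-5p, had 0 and 317 reads. With a floor of 3 counts in place of 0 this was 128-fold higher, and the lower limit of its log2 interval was 6.69. miR-147-5p had 0 and 153 reads, 61.8-fold higher with the same floor and a lower limit of 5.63. miR-34c-5p, of the miR-34 family, had 2 and 96 reads, and miR-449a-3p 0 and 65 reads. miR-511-3p, a miRNA of macrophages and dendritic cells, had 222 reads without and 3 with stimulation, a log2 ratio of -5.93 with an interval of -8.22 to -4.37. In WT cells it had 193 and 9 reads.

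The summed levels of most marker lists of other cells moved in these libraries too, and their part in the results was not tested. The 3 myeloid markers summed to 429 CPM without and 69.6 CPM with stimulation, all 3 detected in each library, and miR-223-3p had 396 and 68.2 CPM. The 5 erythroid markers summed to 1652 and 915 CPM, and the 7 stromal ones, of which miR-143-3p alone reached 50 CPM, to 177 and 55.4 CPM. In the erythroid sum, miR-486a-5p and miR-486b-5p had nearly equal counts, 10774 and 10727 reads without stimulation, so shared reads may enter it more than once. miR-451a, of the same list, had a log2 ratio of -0.11, or -0.71 with TMM. The 10 epithelial markers summed to 4330 and 2871 CPM, led by miR-192-5p with 3252 and 2321 CPM, and 1 of them was at 0 after stimulation. miR-203-3p, an epithelial marker, had 475 and 103 CPM. miR-200c-3p, another epithelial marker but under 50 CPM, rose instead, with 253 reads without and 367 with stimulation.

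The 2 endothelial and megakaryocyte markers moved the other way. They summed to 71.6 CPM without and 324 CPM with stimulation, and miR-126a-5p was called higher with 60.9 and 287 CPM. The 2 listed liver and muscle markers summed to 0.642 and 0.519 CPM. Of 36 listed miRNAs of the imprinted Dlk1-Dio3 region, 2 reached 50 CPM, and the summed level was 608 and 230 CPM. miR-127-3p, one of them, had 309 and 98.3 CPM in Cbl-b-/- cells and 80.3 and 35.3 CPM in WT cells. The resting T cell and miR-181 lists summed to 118604 and 124217 CPM without stimulation, and to 53358 and 22297 CPM with it. The first of these sums includes miR-26a-5p and miR-26b-5p, which were not among the T cell markers chosen beforehand, so it is not a level of T cell markers alone. CD4+ identity is not resolved by these miRNAs.

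Set beside WT cells, the response was of similar size for most miRNAs. Of the 52 miRNAs called higher with both scalings, 48 were also past the rule with column sums in WT cells, and of the 33 called lower, 27. In WT cells the minimum of 50 CPM applied to the WT levels, so a miRNA scarce there failed whatever its ratio. miR-99a-5p and miR-125b-5p failed in this way, with 153 and 124 WT reads without and 25 and 44 with stimulation. The response of Cbl-b-/- cells lay within 0.5 log2 of that of WT cells for 189 of 223 miRNAs, or 84.8%, and the median difference was -0.04. Among these 223, a difference of at least 1 was found in 6 miRNAs, all with the larger value in Cbl-b-/- cells. They were miR-6240, miR-451a, miR-155-3p, miR-31-5p, miR-31-3p and miR-22-5p, at 3.11, 1.44, 1.11, 1.08, 1.08 and 1.04. The minimum of 50 CPM applied here to the Cbl-b-/- levels, so miRNAs that rose mainly in WT cells could be left out. miR-6539 was left out in this way, with 40 and 972 reads in Cbl-b-/- and 21 and 1655 in WT cells. The shared direction of the 6 is therefore partly set by the minimum. miR-451a, an erythroid marker, had 99.3 and 91.8 CPM in Cbl-b-/- cells and 71.6 and 24.4 CPM in WT cells. With 1 library per group it was not tested whether these differences exceed the spread between animals.

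The limit of 2-fold divides miRNAs with nearly equal ratios. Just past it with column sums were miR-669a-5p and miR-669p-5p, which have identical counts, at 1.050, and let-7c-5p and miR-26b-5p at -1.029 and -1.020. Just short of it were miR-130b-3p and miR-351-5p at 0.997 and 0.965, and miR-29c-3p and miR-467e-5p at -0.979 and -0.978.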

How the data were processed

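Small RNA libraries were made from CD4+ T cell RNA using NEBNext small RNA reagents, as the labels' protocols state. Per the submitters' processing notes, the tools and builds include cutadapt 1.7.1 and GRCm38.p5, without their roles; no source used here names the aligner, counter or miRNA release. The authors deposited raw read counts per known mature miRNA, and normalized counts, a score equal to the count divided by 1 constant per library. Only the counts entered the results; the score gave the authors' totals as an alternative. Reads that fit several miRNAs appear in each of them, since 12 groups of miRNAs have identical counts.

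The unstimulated and stimulated tables were joined by miRNA name, and counts were scaled by column sums and by TMM (edgeR 4.0.16) over 4 libraries. With 1 library per group edgeR's test has no residual degrees of freedom, so a rule of size was used: 2-fold, a mean of 50 CPM with column sums, and a 95% Clopper-Pearson interval of the ratio that excludes 0 (scipy 1.17.1). Arm balance is the odds ratio of 5p to 3p reads with a conditional exact interval (R 4.3.3). Ratio scripts were tested on simulated data. Seeds and loci came from RefSeq (GRCm38.p6) and GENCODE M21, whose primary coordinates match the authors' build; clusters join hairpins within 10 kb on 1 strand, and a host gene is one annotated on the hairpin's strand.

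Named miRNAs were up to 15 higher and 15 lower with both scalings, the 8 largest gains and losses of share, list members at 50 CPM, hairpins of changed arm balance, miRNAs near 0 and those next to the limit. miR-296-5p, the arm strands and the miRNAs of the closing section that fall outside this rule were chosen after their values were seen. The members and the 19 lists were chosen with earlier results of these data known. Alternatives were other scalings, levels, fold limits and read minimums, and identical rows kept once.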

Additional observations from a re-analysis of the deposited data

Results flagged for a closer look

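For 4 of the 223 miRNAs tested, the response had opposite signs in the genotypes with column sums, each beyond counting error. The difference was not tested because each group has 1 library. The differences, Cbl-b-/- minus WT in log2, were 0.90 for miR-874-3p, 0.71 for miR-339-3p, 0.66 for miR-221-3p and -0.34 for miR-3964. miR-221-3p had a log2 ratio of 0.45 in Cbl-b-/- and -0.21 in WT cells, and miR-874-3p 0.17 and -0.74. With TMM all 4 miRNAs had ratios below 0 in both genotypes, so the opposite signs were not seen with that scaling.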

How the results depend on the processing

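Against 78 higher and 33 lower miRNAs with column sums, TMM over 4 or over 2 libraries gave 52 and 67, and DESeq2 size factors (1.42.0), which lowered log2 ratios by 0.54 (shift, -0.54), gave 54 and 65. Totals without the 10 most abundant miRNAs gave 69 and 46, and the authors' totals 75 and 41. A minimum of 10 CPM gave 125 and 57, 200 CPM 37 and 21, and none 278 and 123. Fold limits of 1.5 and 4 gave 99 and 53, and 39 and 9. Identical rows kept once gave 77 and 32. Of the counts with both scalings, 52 and 33, DESeq2 in place of TMM gave 54 and 33; 10 CPM gave 87 and 57, 200 CPM 22 and 21, and limits of 1.5 and 4 gave 70 and 53, and 26 and 9. The 40 hairpins with a changed arm balance became 58 with 20 and 23 with 500 reads per arm, and 64 and 9 with limits of 1.5 and 4. The percentage of hairpins whose minor arm gained, 63.8, was 51.4 and 76.8 with these read minimums and 62.1 with the minor arm taken from the Cbl-b-/- unstimulated library. Counts fell or rose with the number tested by construction; the cause of the shifts between scalings was not tested. Authors' totals, the counts with both scalings and the percentage of hairpins were added after seeing the data. No paired analysis was possible because each group holds 1 library. For the same reason no replicate could be left out. A count of 0 allows up to 0.214 CPM in the unstimulated and 0.259 CPM in the stimulated Cbl-b-/- library.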

Other observations

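In the miR-130 group, miR-301a-3p, miR-301b-3p and miR-130b-5p were each called higher, beside 23.3% of all miRNAs tested. They went from 1245 to 4845 CPM, from 43.5 to 446 CPM and from 55.5 to 170 CPM. miR-130b-5p is the minor arm of its hairpin and has another seed. The main arm, miR-130b-3p, had 9378 and 15442 reads and was not called, at a log2 ratio of 0.997. miR-130a-3p lay under 50 CPM. In the X-linked cluster from miR-188 to miR-532, 5 strands at 50 CPM or more with a RefSeq sequence had log2 ratios from 0.42 to 3.29. Of these, 3 were called higher with both scalings, beside 23.3% of all miRNAs tested. miR-532-5p, which has no entry there, had 901 and 2211 CPM, a log2 ratio of 1.29. miR-188-5p had 17.5 CPM without and 170 CPM with stimulation, and miR-501-3p 47.2 and 268 CPM. Among strands known outside lymphocytes, miR-211-5p, from an intron of the melanocyte gene Trpm1, had 407 and 73.3 CPM in Cbl-b-/- cells and 399 and 68.8 CPM in WT cells. The counts of miR-669a-3p and miR-669o-3p are identical, 3920 and 1248 reads, and both were called lower.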
